A study of Mus musculus with 2 samples.

Results

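Capillary endothelial cells were examined in single-cell RNA counts from the pressure-loaded mouse heart, as 3273 of 26178 cell barcodes from 2 libraries. The libraries come from the left ventricle 6 weeks after transverse aortic constriction (TAC), a surgical narrowing of the aorta that makes the ventricle pump against a raised pressure. They carry the labels wild-type and p53 knockout. Each is a mixture of 3 hearts, so every group holds 1 library, both groups had TAC, and no heart without TAC is in the comparison. Strain, age, sex, the p53 allele and any Cre driver are not given in the sources used here. With 1 library per group the spread between animals cannot be measured, so no test was made and no p-value is given. Intervals are 95% and cover counting error only.

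A barcode counted as a member when it held at least 4 unique molecular identifiers (UMIs, each standing for 1 captured RNA molecule) over 6 endothelial genes, namely Flt1, Kdr, Fabp4, Ly6c1, Aqp1 and Cdh5. It could hold at most 1 UMI in each of 3 lists of 5 genes that mark other endothelium. The endocardial and lymphatic list was Npr3, Cytl1, Tmem108, Mmrn1 and Reln, the Igfbp5 list was Igfbp5, Adamtsl1, Stc1, Kirrel3 and Vegfc, and the arterial list was Sox17, Gja5, Gja4, Sema3g and Hey1. It also had to hold 0 UMIs of the leukocyte gene Ptprc and less than 2.5% of its UMIs outside mitochondrial genes in Ttn, Myh6, Ryr2 and Tnnt2, which encode cardiomyocyte proteins. Members were thus selected on measured UMIs of these genes, whose levels are given as a description.

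Capillaries are the narrow vessels across which blood and heart muscle exchange gas and nutrients. In the heart, which burns mainly fatty acids, their endothelium carries lipoprotein lipase to the vessel lumen on Gpihbp1 and passes the freed fatty acids inward through Cd36 and the fatty acid binding proteins Fabp4 and Fabp5. Flt1 and Kdr encode receptors for vascular endothelial growth factor (VEGF), Car4 a carbonic anhydrase on the cell surface, and Rgcc a regulator of the cell cycle.

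The library labelled wild-type held 2016 members among 16060 barcodes, or 12.6% (exact binomial interval 12.04 to 13.1%), and the library labelled p53 knockout 1257 among 10118, or 12.4% (11.8 to 13.1%). The shares were thus close, while the barcodes that met the endothelial, Ptprc and cardiomyocyte conditions before the 3 exclusions were 19.8% of the first library and 34.1% of the second. Members made up 63.3% of these endothelial barcodes in the wild-type-labelled library and 36.4% in the knockout-labelled library. The remaining endothelial barcodes fell into an arterial set (77 and 207 barcodes), an Igfbp5 set (445 and 751), an endocardial or lymphatic set (366 and 506) and barcodes that met more than 1 exclusion (283 and 733). Here and in what follows, pairs of values give the wild-type-labelled library first. The rule uses fixed numbers of UMIs, so a deeper barcode meets both the endothelial threshold and the exclusions more easily. Median depth was 940 and 1540 UMIs over all barcodes, and 1625 and 3194 UMIs in barcodes that met more than 1 exclusion. The part of depth in these shares of the endothelial barcodes was not tested.

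Depth differed between the libraries: the median member held 906 and 1369 UMIs over 610 and 857 genes. Summed over members, 1969852 and 1988583 UMIs lay outside mitochondrial genes, so totals were nearly equal. Levels are CPM, UMIs scaled to a common sum of 1000000 per library. Trp53, which encodes p53, stood at 41.1 and 46.8 CPM from 81 and 93 UMIs, so that the log2 ratio was 0.18 (−0.26 to 0.63). The knockout-labelled library did not hold less of this RNA. Since the allele is not given, RNA from its 3′ end may lie outside a deleted part. Since any Cre driver is not given, it is also not known whether a deletion reaches these cells. Neither point was tested. Sex-linked genes also set the libraries apart: Xist stood at 3.55 and 821 CPM, and the Y-linked Ddx3y at 172 and 0.503 CPM. The labels name cardiomyocytes as the cell type, which these members are not by their genes. The libraries shared 105 barcode strings, 2 of them members in both, and none had identical totals.

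The capillary markers were high in members. Of the 6 capillary markers, Flt1, Kdr and Fabp4 belong to the rule, which fixes their contrast with other barcodes, so the sum is a description. The 6 (Flt1, Kdr, Fabp4, Car4, Rgcc and Gpihbp1) summed to 6942 and 6582 CPM in members, against 314 and 185 CPM in fibroblast barcodes of the same libraries (3117 and 1812 barcodes with at least 4 UMIs of fibroblast genes and at most 1 UMI of the endothelial genes). Of the 6, only Car4, Rgcc and Gpihbp1 were not in the rule. Gpihbp1 was at 358 and 376 CPM in members and 37.2 and 18.3 CPM in fibroblast barcodes. Rgcc was at 382 and 612 CPM, and Car4 at 164 and 74.4 CPM, against at most 40.8 CPM for either gene in fibroblast barcodes. All 3 were thus higher in members than in fibroblast barcodes. Those barcodes were chosen to hold little endothelial RNA, so their levels may understate free RNA, whose part was not tested. The arterial set held these genes too, with Gpihbp1 at 388 and 389 CPM, Rgcc at 327 and 614 CPM and Car4 at 109 and 74.9 CPM, so in the knockout-labelled library none of the 3 was lower there than in members. The endocardial or lymphatic set held 122 and 53.3 CPM of Gpihbp1, 136 and 69.3 CPM of Rgcc and 39.2 and 11.4 CPM of Car4, each below the level in members of the same library.

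**Figure D1:**
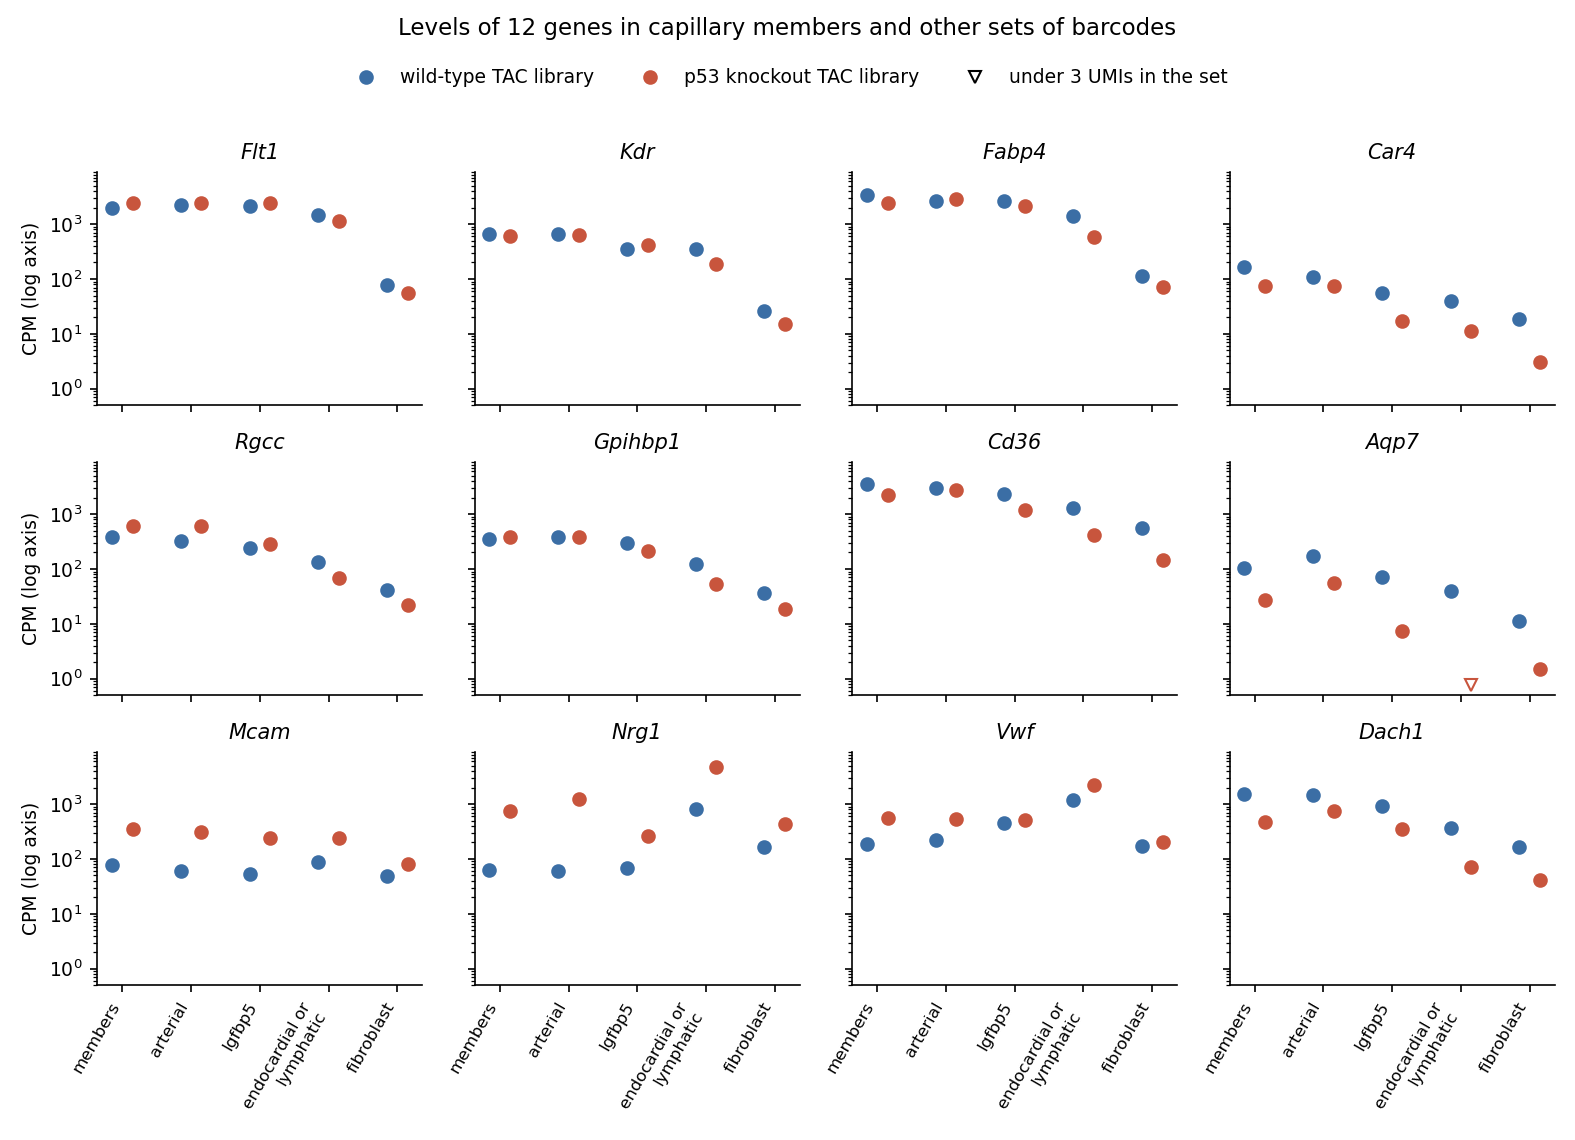
Each panel plots 1 gene, with the level in CPM of UMIs outside mitochondrial genes on a log axis, in capillary members, 3 other endothelial sets and fibroblast barcodes. Each point is 1 library (blue wild-type TAC, red p53 knockout TAC) with no replicate, and an open triangle marks a set with under 3 UMIs. Flt1 and Fabp4, both genes of the rule, are high in members and low in fibroblast barcodes, and Nrg1 and Vwf peak in the endocardial or lymphatic set.

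Barcodes next to the rule's threshold were 532 and 258 just outside, with 3 UMIs of the endothelial genes, and 352 and 175 members with 4. Flt1 stood at 837 and 568 CPM outside and at 974 and 797 CPM inside, a step that the rule itself sets. Of the markers not in the rule, Gpihbp1 was at 167 and 104 CPM outside and 250.1 and 144 CPM inside, and Rgcc at 189 and 95.6 CPM outside and 214 and 164 CPM inside. Car4 was at 62.3 and 13.3 CPM outside, and inside at 85.6 CPM in the wild-type-labelled library and 0 UMIs in the knockout-labelled library.

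RNA of other cell types was present in members of both libraries. In the count used for an alternative below, 57.8% and 59.7% of members held 2 or more UMIs of other classes. The 10 cardiomyocyte markers summed to 12085 and 4709 CPM, higher in the wild-type-labelled library. Fibroblast markers summed to 4170 and 4996 CPM, pericyte markers to 776 and 422 CPM, macrophage markers to 542 and 305 CPM, and neutrophil markers to 3.55 and 40.7 CPM with Ly6g at 0 in both. Venous markers (833 and 1949 CPM), endocardial markers (632 and 1430 CPM), red cell markers (974 and 2990 CPM), smooth muscle markers (104 and 271 CPM) and adipocyte markers (57.4 and 157 CPM) were higher in the knockout-labelled library. The part of these differences in the results below was not tested. Medians of the gene lists are given below for a narrower set of members and for fibroblast barcodes.

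The narrower set was chosen after the data had been seen, as members with at least 1 UMI of Car4, Rgcc or Gpihbp1, and is called marker-positive. It held 893 of 2016 members (44.3%, 42.1 to 46.5%) and 687 of 1257 (54.7%, 51.9 to 57.4%). A deeper barcode meets it more easily: its median depth was 968 and 1380 UMIs, against 857 and 1345 UMIs in the other members. In the knockout-labelled library the split separated contrasting barcodes. Fibroblast markers summed to 2618 CPM in marker-positive members and 7775 CPM in the others, venous markers to 1256 and 2759 CPM, and endocardial markers to 959 and 1980 CPM. Cd36 was at 3204 CPM in marker-positive and 1106 CPM in other members of that library, Nrg1 at 380 and 1147 CPM, and the matrix gene Fn1 at 235 and 1152 CPM. In the wild-type-labelled library the same split gave closer values, with Cd36 at 4254 and 2840 CPM and Nrg1 at 54.3 and 72.4 CPM. Fibroblast markers there summed to 2911 CPM in marker-positive members and 5274 CPM in the others. In the same order, venous markers summed to 732 and 922 CPM there, and endocardial markers to 582 and 676 CPM. Fibroblast markers were thus unevenly spread over the members of both libraries, and markers of endocardium and veins mainly over those of the knockout-labelled library.

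**Figure D2:**
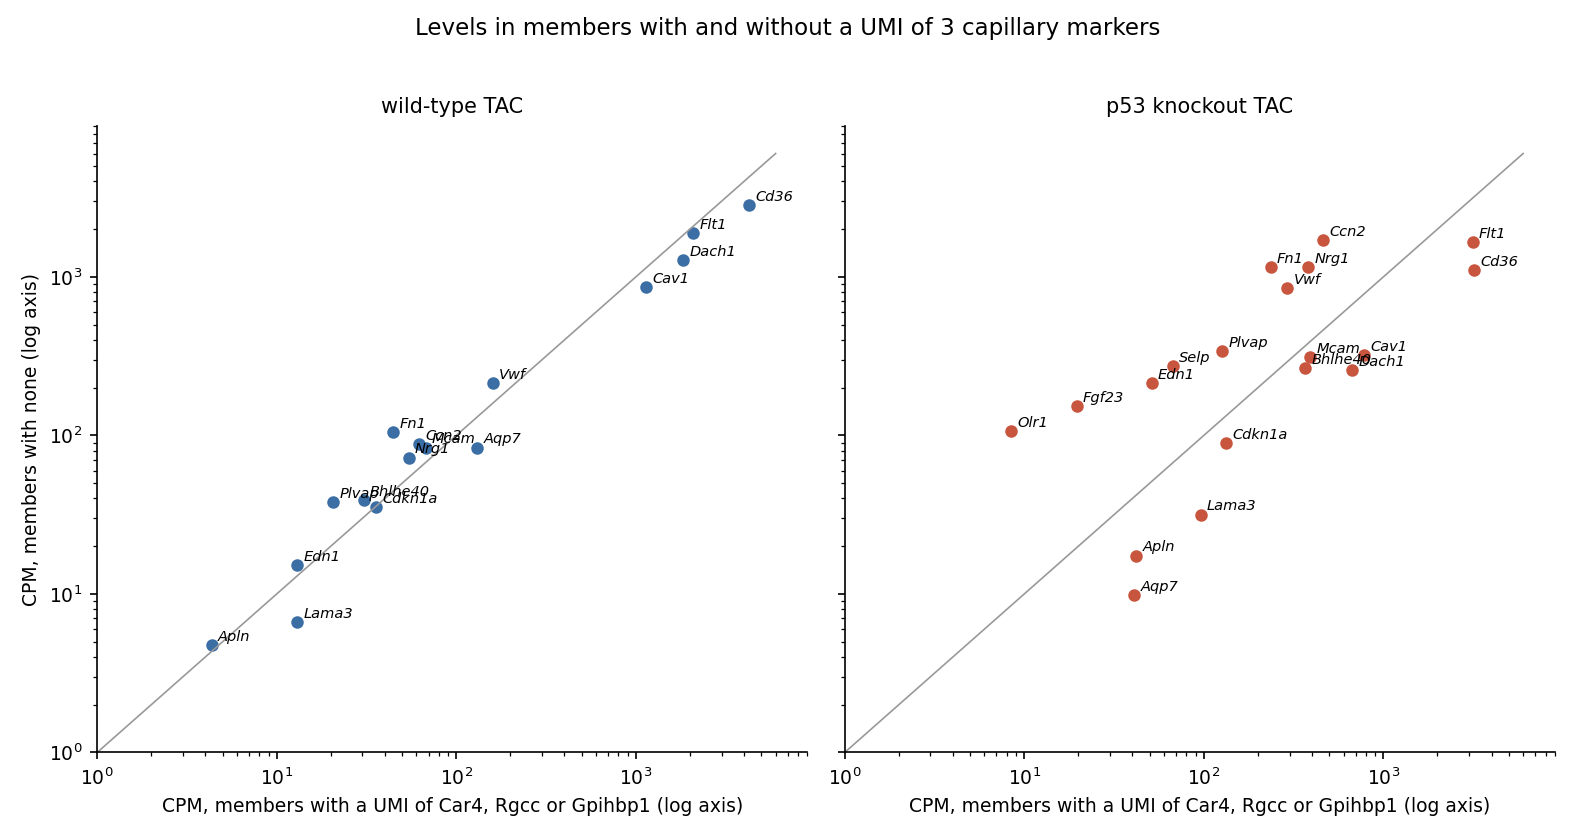
Levels in CPM on log axes in members with (horizontal) and without (vertical) a UMI of Car4, Rgcc or Gpihbp1, for 1 library per panel. Each point is 1 gene and the line marks equal levels. Genes lie nearer the line in the wild-type library, while in the p53 knockout library Nrg1, Fn1, Olr1 and Fgf23 lie far above it and Cd36 and Cav1 below it. Genes with under 3 UMIs in either set are not drawn.

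Mesenchymal matrix genes and genes of adhesion and clotting were mostly higher in the knockout-labelled library, with list medians of 1.62 and 1.05 on the log2 scale. Over the alternative rules and filters these medians ranged from 0.70 to 1.98 and from 0.56 to 1.07. Genes of fatty acid oxidation and oxidative phosphorylation were mostly lower, with medians of −0.78 and −0.66, while genes of fatty acid uptake were split around −0.08. Of 5374 genes that reached 100 UMIs in either library, 336 (6.25%) were at least 2-fold higher and 281 (5.23%) at least 2-fold lower in the knockout-labelled library. Ratios add 0.5 UMI to each sum. Of the 336 genes higher in members, 334 had a value in fibroblast barcodes, and 171 of these (51.2%) were also at least 2-fold higher there. Of the lower genes, 60.6% were at least 2-fold lower in fibroblast barcodes too. In direction alone, 96.7% of the higher and 97.5% of the lower genes with a value in fibroblast barcodes went the same way there. Among marker-positive members, 2943 genes reached 100 UMIs, with 215 (7.31%) at least 2-fold higher and 137 (4.66%) lower. Of these, 155 and 102 were among the genes found in all members. The balance of higher and lower genes moved with depth and with cardiomyocyte RNA. Among barcodes of 500 to 1500 UMIs it was 135 (3.56%) and 281 (7.42%) of 3789 genes. Among those with under 0.5% cardiomyocyte UMIs it was 330 (7.19%) and 138 (3.01%) of 4588 genes. Of the 336 higher and 281 lower genes of all members, 101 and 180 were among the first, and 288 and 110 among the second. Fewer genes reach the minimum in these smaller sets.

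The 15 genes with the highest ratios were taken from those with at least the level of the remaining barcodes. Fgf23, a phosphate-regulating hormone made mainly in bone, had 0 UMIs in the wild-type-labelled library and 81.5 CPM in the other, at least 53.5-fold higher, taking 3 UMIs per library as the limit that a count of 0 allows. Olr1, a receptor for oxidised low-density lipoprotein, had 0 UMIs and 53.8 CPM, at least 35.3-fold higher. These bounds take the knockout-labelled level as measured, without its counting error. Over the alternatives the log2 ratios of Fgf23 and Olr1 fell as low as 4.70 and 4.03. Most UMIs of both came from the marker-negative members: in marker-positive members Fgf23 was at 0 UMIs and 19.6 CPM and Olr1 at 0 UMIs and 8.399 CPM. Selp (P-selectin, which slows rolling leukocytes) stood at 2.03 and 162 CPM, a log2 ratio of 6.15 (4.95 to 8.20). Few members held it: 0.198% and 7.4% had a UMI of Selp. After thinning to an equal depth, its variance over mean in the knockout-labelled library was 3.67, above that of pure counting. The interval assumes pure counting and therefore leaves out part of the variation among cells. Selp was at 2.17 and 67.2 CPM in marker-positive members and at 1.21 and 38.7 CPM in fibroblast barcodes.

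Chemokine, actin, receptor and matrix genes stood next. Ccl2, a chemokine that draws monocytes, was at 5.08 and 83.5 CPM (log2 3.97), and Tagln, an actin-binding protein of smooth muscle, at 9.14 and 97.6 CPM (log2 3.38). Bhlhe40, a transcriptional repressor induced by low oxygen, stood at 35.03 and 320 CPM, a log2 ratio of 3.18 (2.83 to 3.57). Its ratio was 3.56 in marker-positive members and 2.43 in fibroblast barcodes. Kit, the receptor for stem cell factor, stood at 9.14 and 74.9 CPM (log2 3.001, 2.33 to 3.83), and at 6.65 and 6.70 CPM in fibroblast barcodes. Lama3, a laminin chain of basement membrane, was at 9.65 and 66.4 CPM in members and 4.84 and 5.48 CPM in fibroblast barcodes. For Kit and Lama3 the marker-positive ratios were 2.92 and 2.83, close to those in all members. Cfd (complement factor D), Ier3 (an early response gene), Egln3 (an oxygen-sensing prolyl hydroxylase), Tmem45b, Dbn1 (the actin binder drebrin) and Lrg1 (a secreted glycoprotein) were also on it, with log2 ratios from 2.69 to 2.88.

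At the lower end stood receptors, transporters and enzymes. Slc15a2, a peptide transporter, was at 387 and 4.02 CPM, a log2 ratio of −6.50 (−7.80 to −5.60), and at 121 and 5.18 CPM in fibroblast barcodes. Gabrb2, a subunit of the receptor for the transmitter GABA, was at 196 and 2.01 CPM, a log2 ratio of −6.44 (−8.49 to −5.24). It was at 10.6 and 1.52 CPM in fibroblast barcodes, and in the wild-type-labelled library it was higher in members than in the arterial (145 CPM), Igfbp5 (124 CPM) or endocardial or lymphatic (43.4 CPM) sets.

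Enzymes of vitamin A and fat metabolism were also among the lowest. Cyp26b1, which degrades retinoic acid, stood at 92.4 and 18.6 CPM (log2 −2.30), Adh1, an alcohol dehydrogenase, at 109 and 23.1 CPM (−2.22), and Cyp4b1, a cytochrome P450, at 173 and 40.2 CPM (−2.10). Nmnat1, which makes NAD in the nucleus, was at 110 and 14.1 CPM (−2.95), and Esco1, which acetylates cohesin, at 239 and 50.8 CPM (−2.23). Tpm3-rs7 (63.5 and 4.53 CPM) and Zfp982 (60.4 and 15.1 CPM) have near copies elsewhere in the genome that could share their reads, so their values are uncertain. Also among the lowest were Lurap1l, Tnfrsf21, a death receptor, Gt(ROSA)26Sor, a non-coding locus, Aqp7, which lets water and glycerol through, and Hacd4, an enzyme of fatty acid elongation. Of the 15, 6 (Nmnat1, Lurap1l, Cyp4b1, Zfp982, Aqp7 and Hacd4) lie on chromosome 4. At least 2-fold lower were 6.79% of the 324 measured genes of that chromosome, against 5.23% over all genes, 9.19% on chromosome 6 and 8.79% on chromosome 19.

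**Figure D3:**
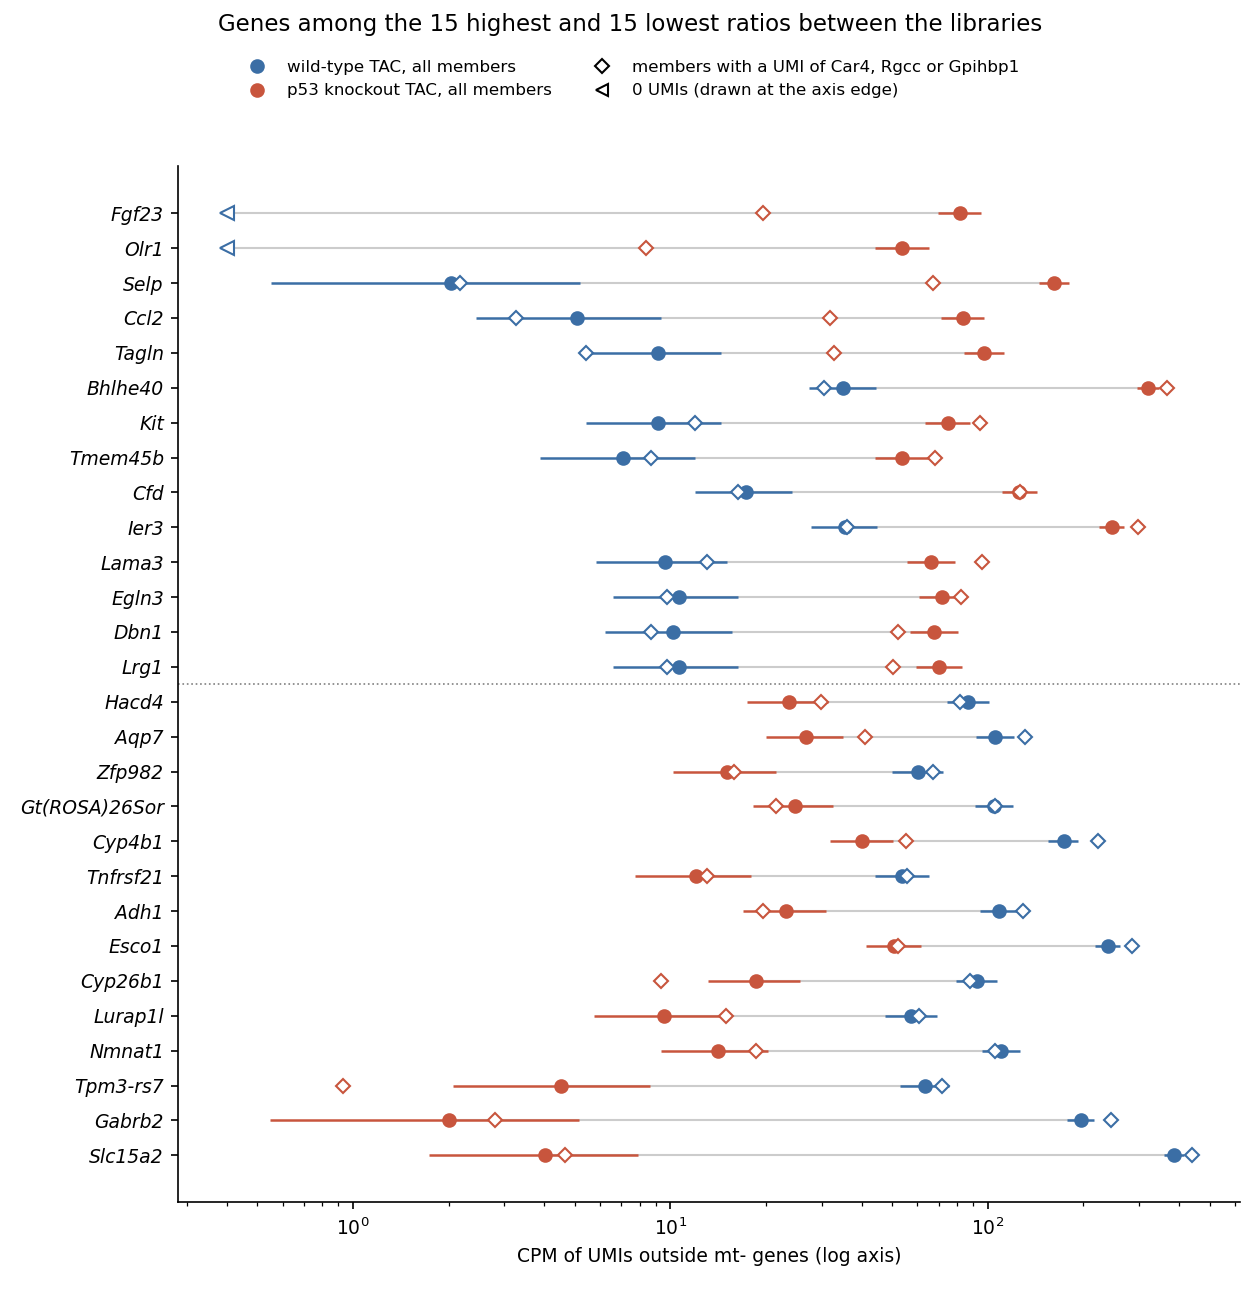
Genes among the 15 highest and 15 lowest ratios between the libraries, with the level in CPM on a log axis. Filled points are all members with the 95% Poisson interval for counting error, open diamonds are marker-positive members, and triangles at the edge stand for 0 UMIs. Selp lies at 2.03 CPM in wild-type TAC and 162 CPM in p53 knockout TAC, and Slc15a2 at 387 and 4.02 CPM. A UMI of Selp was held by 0.198% and 7.4% of members.

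Gene lists were read against all 12388 genes with at least 20 UMIs over both libraries, of which 7.43% were at least 2-fold higher and 9.01% at least 2-fold lower, with a median log2 ratio of −0.03. The same figures in marker-positive members were 7.16% and 9.37% of 10342 genes.

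Genes of the capillary identity were mostly lower in the knockout-labelled library, while general endothelial genes were not. Of 18 measured capillary genes beyond the 6 markers, 17 were lower and 5 (27.8%) at least 2-fold lower, with a median log2 ratio of −0.67, −0.46 in marker-positive members and −0.96 in fibroblast barcodes. Cd36, the fatty acid translocase, stood at 3501 and 2236 CPM (log2 −0.65, −0.70 to −0.59). Aqp7 stood at 106 and 26.7 CPM (−1.98, −2.45 to −1.54), and C1qtnf9, a secreted relative of adiponectin, at 109 and 38.2 CPM (−1.501). Timp4, a metalloproteinase inhibitor, was at 304 and 148 CPM, and Meox2, a homeobox factor that with Tcf15 drives fatty acid uptake in heart endothelium, at 243 and 125 CPM. Sgk1, a kinase induced by stress hormones, was the exception at 333 and 598 CPM (0.85). Among the markers, Car4 was lower at 164 and 74.4 CPM (−1.14, −1.43 to −0.86) and Rgcc higher at 382 and 612 CPM (0.68, 0.55 to 0.81), while Gpihbp1 lay within counting error of equality (0.07, −0.08 to 0.22).

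Of 25 pan-endothelial genes, 19 were higher and 6 lower, with 2 (8%) at least 2-fold higher and a median of 0.19, 0.37 in marker-positive members and −0.24 in fibroblast barcodes. Mcam, an adhesion molecule and co-receptor of Kdr, stood at 76.1 and 354 CPM (2.21, 1.96 to 2.48), 67.4 and 390 CPM in marker-positive members, and 48.1 and 82.5 CPM in fibroblast barcodes. Vwf, a glycoprotein that binds platelets in clotting, was at 189 and 549 CPM (1.54), and its ratio was 0.86 in marker-positive members. Pecam1, a junction protein, was at 777 and 1119 CPM, Eng, a co-receptor for transforming growth factor beta (TGF-beta), at 670 and 1075 CPM, and Emcn, a sialomucin of capillaries and veins, at 966 and 821 CPM. The knockout-labelled library thus held more RNA of Mcam and Vwf and near-equal amounts of Egfl7 (1131 and 1177 CPM), an endothelial matrix protein.

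Fatty acid uptake genes, with Fabp4 of the rule among them, were split. Of 26 measured, 10 were higher and 16 lower, none was 2-fold higher and 3 (11.5%) were at least 2-fold lower, with a median of −0.08, 0.01 in marker-positive members and −0.76 in fibroblast barcodes. The 3 lower genes were Aqp7, Vldlr, a receptor for triglyceride-rich lipoprotein, at 88.3 and 25.1 CPM (−1.80), and Ppara, a fatty acid sensing transcription factor, at 65.5 and 19.1 CPM (−1.76). Lpl, lipoprotein lipase, was at 1402 and 995 CPM (−0.49), and Pparg, the factor that induces Fabp4 and Cd36, at 428 and 402 CPM. Caveolae, the membrane pits that capillary endothelium is rich in, gave 5 genes higher and 6 lower of 11, at a median of −0.01, 0.19 in marker-positive members and −0.0045 in fibroblast barcodes. The coat genes Cav1 (992 and 567 CPM, −0.81) and Cavin2 (721 and 370 CPM, −0.96) were lower. Plvap, which forms the diaphragm of caveolae, was higher at 29.95 and 226 CPM (2.90, 2.52 to 3.33), with a ratio of 2.59 in marker-positive members and 0.51 in fibroblast barcodes.

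Mitochondrial genes were lower almost throughout. Of 20 fatty acid oxidation genes 19 were lower and 5 (25%) at least 2-fold lower, with a median of −0.78, −0.69 in marker-positive members and −0.94 in fibroblast barcodes. Pdk4, a kinase that turns carbon use from glucose to fat, stood at 172 and 39.7 CPM (−2.10, −2.48 to −1.75), Eci1, an isomerase of the pathway, at 76.7 and 27.7 CPM (−1.46), and Ppargc1a, a coactivator of mitochondrial genes, at 108 and 39.7 CPM (−1.43). Ucp2, a mitochondrial carrier, was the exception at 32.5 and 81.0 CPM (1.31). All 34 nuclear genes of oxidative phosphorylation were lower and 5 (14.7%) lay past 2-fold, at a median of −0.66. The median was −0.74 in marker-positive members and −0.88 in fibroblast barcodes. Atp5j, an ATP synthase subunit, was at 273 and 104 CPM (−1.39), Ndufa4 at 401 and 195 CPM (−1.04), and Cox4i1, a cytochrome oxidase subunit, at 553 and 307 CPM (−0.85). Cardiomyocyte markers, whose cells are rich in these RNAs, were also lower in members of the knockout-labelled library (12085 and 4709 CPM), and their part in the values was not tested.

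Glycolysis and hypoxia genes lay the other way. Of 30 measured, 25 were higher and 11 (36.7%) at least 2-fold higher, none was 2-fold lower, and the median of 0.64 compared with 0.68 in marker-positive members and 0.56 in fibroblast barcodes. Slc16a3, a lactate exporter, had 1 UMI (0.508 CPM) in the wild-type-labelled library and 28.2 CPM in the other, a log2 ratio of 5.22 with a wide interval (3.26 to 11.12). Egln3 was at 10.7 and 71.9 CPM (2.72, 2.09 to 3.49), the glucose transporter Slc2a1 at 5.08 and 30.7 CPM (2.54), and Pkm, which makes pyruvate, at 120 and 242 CPM (1.01). Epas1, the hypoxia factor of endothelium, was alike at 412 and 397 CPM (−0.05).

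Hypoxia-inducible factors bind a short core that is often ACGTG. The 250 bases before the start of each gene were searched for these letters on both strands (ACGTG or its reverse complement CACGT) in RefSeq promoters of GRCm38.p6 (mm10). It was found in 15 of 25 list genes with a promoter (60%), in 13 of the 22 higher and 2 of the 3 lower genes, and in 18.5% of all 27025 genes with a promoter in the table. A gene with several promoters counts once, if any of them holds the letters, and the 25 list genes had 34 promoters. A match describes the letters and not a bound site. The list holds genes of hypoxia, so its share above that of all genes describes the list and not a difference between the libraries. The promoter stretches of the 3 genes with the highest ratios in this list are shown because they hold the core, in capitals, read 5′ to 3′ on the strand of the gene. Slc16a3 is from chr11:120948917-120949066 on the plus strand with 2 copies, the last beginning 14 bases before the start. Egln3 is from chr12:54203975-54204124 on the minus strand with its copy 229 bases before the start, and Slc2a1 from chr4:119108595-119108744 on the plus strand with its copy 36 bases before it.
Slc16a3: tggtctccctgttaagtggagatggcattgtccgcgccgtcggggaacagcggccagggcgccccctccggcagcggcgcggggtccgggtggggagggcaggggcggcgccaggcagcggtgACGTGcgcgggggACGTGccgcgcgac
Egln3: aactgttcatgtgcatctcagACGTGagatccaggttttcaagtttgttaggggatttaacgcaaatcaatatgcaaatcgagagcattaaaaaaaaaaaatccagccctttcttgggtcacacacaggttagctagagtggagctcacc
Slc2a1: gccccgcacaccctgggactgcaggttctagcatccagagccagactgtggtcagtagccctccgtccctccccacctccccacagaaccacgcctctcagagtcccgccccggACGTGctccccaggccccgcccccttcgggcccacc

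The site of peroxisome proliferator activated receptors is a repeat of AGGTCA, and this single copy or its reverse complement TGACCT was searched for in the same way. Counted per gene, it was before 4 of 18 fatty acid oxidation genes (22.2%, 18 promoters) and 4 of 16 fatty acid uptake genes (25%, 24 promoters), against 15.8% of all genes. These shares too describe the lists and not a difference between the libraries. The stretch before Aqp7, the capillary gene with the lowest ratio, is shown with the motif in capitals, from chr4:41048137-41048286 on the minus strand, where the motif begins 49 bases before the start.
Aqp7: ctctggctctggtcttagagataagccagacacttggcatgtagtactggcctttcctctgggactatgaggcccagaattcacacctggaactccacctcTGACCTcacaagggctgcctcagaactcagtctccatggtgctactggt

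Vessel growth signals were higher on balance, with ligands and receptors unequal. Of 26 VEGF, angiopoietin and apelin genes, 18 were higher and 8 lower, 8 (30.8%) at least 2-fold higher and 3 (11.5%) at least 2-fold lower, with a median of 0.44, 0.50 in marker-positive members and −0.34 in fibroblast barcodes. Flt1, Kdr and Vegfc are genes of the rule, and 23 of the 26 lie outside it. The rule caps Vegfc in members, and its ratio (−1.14) is among the 3 lower ones. Among ligands, Apln (apelin, a peptide of sprouting tips) stood at 4.57 and 30.7 CPM (2.68, 1.73 to 3.94), against 0.907 and 2.13 CPM in fibroblast barcodes. Pgf, a ligand of Flt1, was at 13.7 and 45.8 CPM (1.72), Angpt2, which loosens vessel walls, at 13.2 and 35.7 CPM (1.42), and Vegfb, a ligand of Flt1 made by muscle, at 60.9 and 25.1 CPM (−1.27). Among receptors, Flt1 was at 1977 and 2452 CPM (0.31, and −0.20 in marker-negative members), Kdr at 662 and 600 CPM (−0.14), Flt4, the VEGF-C receptor, at 45.2 and 130 CPM (1.52), and the semaphorin receptor Plxnd1 at 183 and 372 CPM (1.02). Aplnr, the apelin receptor, was lower at 108 and 53.3 CPM (−1.01). So the apelin ligand and its receptor differed in opposite directions.

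Notch genes were higher: 14 of 16, and in 4 (25%) by 2-fold or more, with a median of 0.58, 0.60 in marker-positive members and 0.28 in fibroblast barcodes. The endothelial receptor Notch4 stood at 90.4 and 220 CPM (1.28), the ligand Jag2 at 81.2 and 188 CPM (1.205), and Dll4, the ligand of tip cells, at 82.7 and 124 CPM (0.58, and −0.30 in marker-negative members). Rbpj, the DNA-binding partner of the cleaved receptor, was lower at 200 and 106 CPM (−0.92). Jag2 was at 9.37 and 7.002 CPM in fibroblast barcodes, where it was not higher.

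Flow-response genes were higher, 17 of 19 measured and 7 (36.8%) at least 2-fold, with a median of 0.73, 0.94 in marker-positive members and 0.42 in fibroblast barcodes. Klf2 and Klf4, factors that shear stress induces, stood at 382 and 688 CPM and at 238 and 434 CPM, and Nos3, which makes nitric oxide, at 193 and 390 CPM (1.02). Nos3 was at 58.4 and 40.5 CPM in fibroblast barcodes. Ece1, which activates endothelin, was at 221 and 605 CPM (1.45), and its product's precursor Edn1 at 14.2 and 126 CPM (3.13, 2.58 to 3.77), with 13.04 and 51.3 CPM in marker-positive members. Vasodilator and vasoconstrictor genes were thus both higher. Adhesion and clotting genes had 16 of 20 higher and 10 (50%) at least 2-fold higher, with a median of 1.05, 0.87 in marker-positive members and 0.32 in fibroblast barcodes. Icam1, which holds leukocytes, was at 49.2 and 146 CPM (1.57), and Entpd1, which removes extracellular ATP, at 167 and 398 CPM (1.25).

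Interferon genes were lower on balance, 30 of 38 with 4 (10.53%) at least 2-fold lower and none 2-fold higher, near the background share for 2-fold calls. The median was −0.49, −0.41 in marker-positive members and −0.03 in fibroblast barcodes. Ifit1 was at 41.1 and 13.6 CPM (−1.58), Gbp5 at 66.5 and 30.2 CPM (−1.13), Rsad2 at 168 and 99.6 CPM (−0.75), all proteins that interferon induces, and Cxcl9, a chemokine for T cells, at 11.7 and 3.02 CPM (−1.87). Irf1, an interferon-induced factor, was at 78.2 and 98.6 CPM (0.33, and −0.013 in marker-negative members). Of 17 antigen presentation genes none was 2-fold apart, and the median was 0.18, 0.19 in marker-positive members and 0.24 in fibroblast barcodes. Among them H2-K1, the class I heavy chain, was highest at 691 and 1149 CPM (0.73), although reads of H2 paralogs may be shared.

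Targets of p53 were not uniformly lower in the library labelled p53 knockout. Of 30 measured, 19 were higher and 11 lower, 7 (23.3%) at least 2-fold higher and 1 (3.33%) at least 2-fold lower, with a median of 0.29, 0.31 in marker-positive members and 0.29 in fibroblast barcodes. Cdkn1a, the cell cycle inhibitor p21, stood at 35.5 and 113 CPM (1.66, 1.27 to 2.07), Plk2, a stress kinase, at 122 and 349 CPM (1.51), and Ddit4, an mTOR inhibitor, at 76.1 and 196 CPM (1.36). Eda2r, a death-domain receptor, was lower at 36.6 and 16.6 CPM (−1.13), and Mdm2, which degrades p53, was at 116 and 98.1 CPM (−0.24, −0.52 to 0.04). Cell cycle genes were mostly sparse, with 22 of 33 measured, 16 higher and 6 lower, and their median was 0.44, 0.37 in marker-positive members and −0.13 in fibroblast barcodes. Mki67 at 2.54 and 18.6 CPM came almost wholly from marker-negative members (0 and 0.933 CPM in marker-positive). Of 19 genes of the senescence list 16 were higher and 9 (47.4%) at least 2-fold, with a median of 0.89, 0.73 in marker-positive members and 0.57 in fibroblast barcodes. Igfbp3, an insulin-like growth factor carrier, was at 79.2 and 420 CPM (2.40) and Timp1, a metalloproteinase inhibitor, at 3.05 and 67.4 CPM (4.36).

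Matrix genes were mostly higher. Of 19 mesenchymal genes 16 were higher and 13 (68.4%) at least 2-fold, with a median of 1.62, 1.08 in marker-positive members and 1.12 in fibroblast barcodes. Ccn2, a matricellular protein induced by TGF-beta, stood at 75.6 and 1036 CPM (3.77), at 62.0 and 462 CPM in marker-positive members and 212 and 2064 CPM in fibroblast barcodes. Fn1 was at 76.7 and 658 CPM (3.10), and Col1a1, a fibroblast collagen, at 74.1 and 486 CPM (2.71). Over the alternative rules and filters the Col1a1 ratio ranged from 0.55 to 3.15, and the mesenchymal median from 0.70 to 1.98. After members were thinned to an equal depth, the collagen gene Col3a1 was seen in 4.81% and 9.07% of them. The highest count of Col3a1 in a thinned member was 5 and 24 UMIs, so its RNA was unevenly spread. Basement membrane genes, which endothelium makes itself, were higher in 22 of 25, 7 (28%) at least 2-fold, with a median of 0.64, 0.56 in marker-positive members and 0.17 in fibroblast barcodes. The type IV collagens Col4a1 (375 and 947 CPM, 1.34) and Col4a2 (293 and 731 CPM, 1.32) and perlecan, Hspg2 (535 and 1052 CPM, 0.98), were among those higher. Itga1, a collagen receptor subunit, was lower at 646 and 375 CPM (−0.79). Of 27 TGF-beta and bone morphogenetic protein (BMP) genes 22 were higher and 4 (14.8%) at least 2-fold, among them Smad7, an inhibitor of the pathway (95.4 and 272 CPM, 1.51), while Bmper, a BMP modulator, was lower (66.5 and 25.6 CPM, −1.37). Their median was 0.37, 0.35 in marker-positive members and 0.52 in fibroblast barcodes.

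Junction genes were split, 12 higher and 11 lower of 23, at a median of 0.15, 0.28 in marker-positive members and −0.06 in fibroblast barcodes. Tjp1 (598 and 312 CPM, −0.94) and Afdn (798 and 431 CPM, −0.89), scaffolds of junctions, were lower, and the claudins Cldn5 (73.6 and 140 CPM, 0.92) and Cldn15 (9.65 and 49.3 CPM, 2.32) were higher. Of 35 transcription factors 25 were higher, with 2 (5.71%) at least 2-fold, below the background share, and a median of 0.25, 0.30 in marker-positive members and −0.01 in fibroblast barcodes. The homeobox factors Meox1 (7.11 and 45.3 CPM, 2.63) and Meox2 (−0.96) lay at opposite ends. Dach1, a factor that favours coronary artery growth in mice, was at 1540 and 480 CPM (−1.68, −1.79 to −1.58), and at 1835 and 669 CPM in marker-positive members. Solute transport genes gave 16 higher and 11 lower of 27, and their median was 0.16, 0.17 in marker-positive members and −0.27 in fibroblast barcodes. They included the prostaglandin transporter Slco2a1 at 36.04 and 168 CPM (2.22) and the water channel Aqp1, a gene of the rule, at 1624 and 822 CPM (−0.98). Immediate early genes, which tissue dissociation can also induce, were higher in 21 of 25 and at least 2-fold in 8 (32%), with a median of 0.65 against 0.77 in marker-positive members and 0.66 in fibroblast barcodes.

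Secreted signals were higher in 30 of 38 and at least 2-fold in 18 (47.4%), with a median of 0.79, 0.86 in marker-positive members and 0.40 in fibroblast barcodes. Nrg1, the neuregulin ligand by which endothelium signals to cardiomyocytes, stood at 64.0 and 734 CPM (3.51, 3.26 to 3.79), at 54.3 and 380 CPM in marker-positive members and at 816 and 4798 CPM in the endocardial or lymphatic set. In fibroblast barcodes Nrg1 was at 163 and 431 CPM, so it was higher in the knockout-labelled library there too. Members of the wild-type-labelled library held less of it than fibroblast barcodes did. Mgp, an inhibitor of calcification, was at 373 and 1400 CPM (1.91), Sema3f, a guidance molecule, at 49.7 and 223 CPM (2.16), and Inhbb, an activin subunit, at 6.60 and 46.8 CPM (2.78). Sema3f and Inhbb were no less far apart in marker-positive members, at 2.61 and 2.95. Kitl, the ligand of Kit, was lower at 1001 and 584 CPM (−0.78) and Fgf1, a fibroblast growth factor, at 69.0 and 15.1 CPM (−2.18), so that the receptor Kit and its ligand differed in opposite directions.

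**Figure D4:**
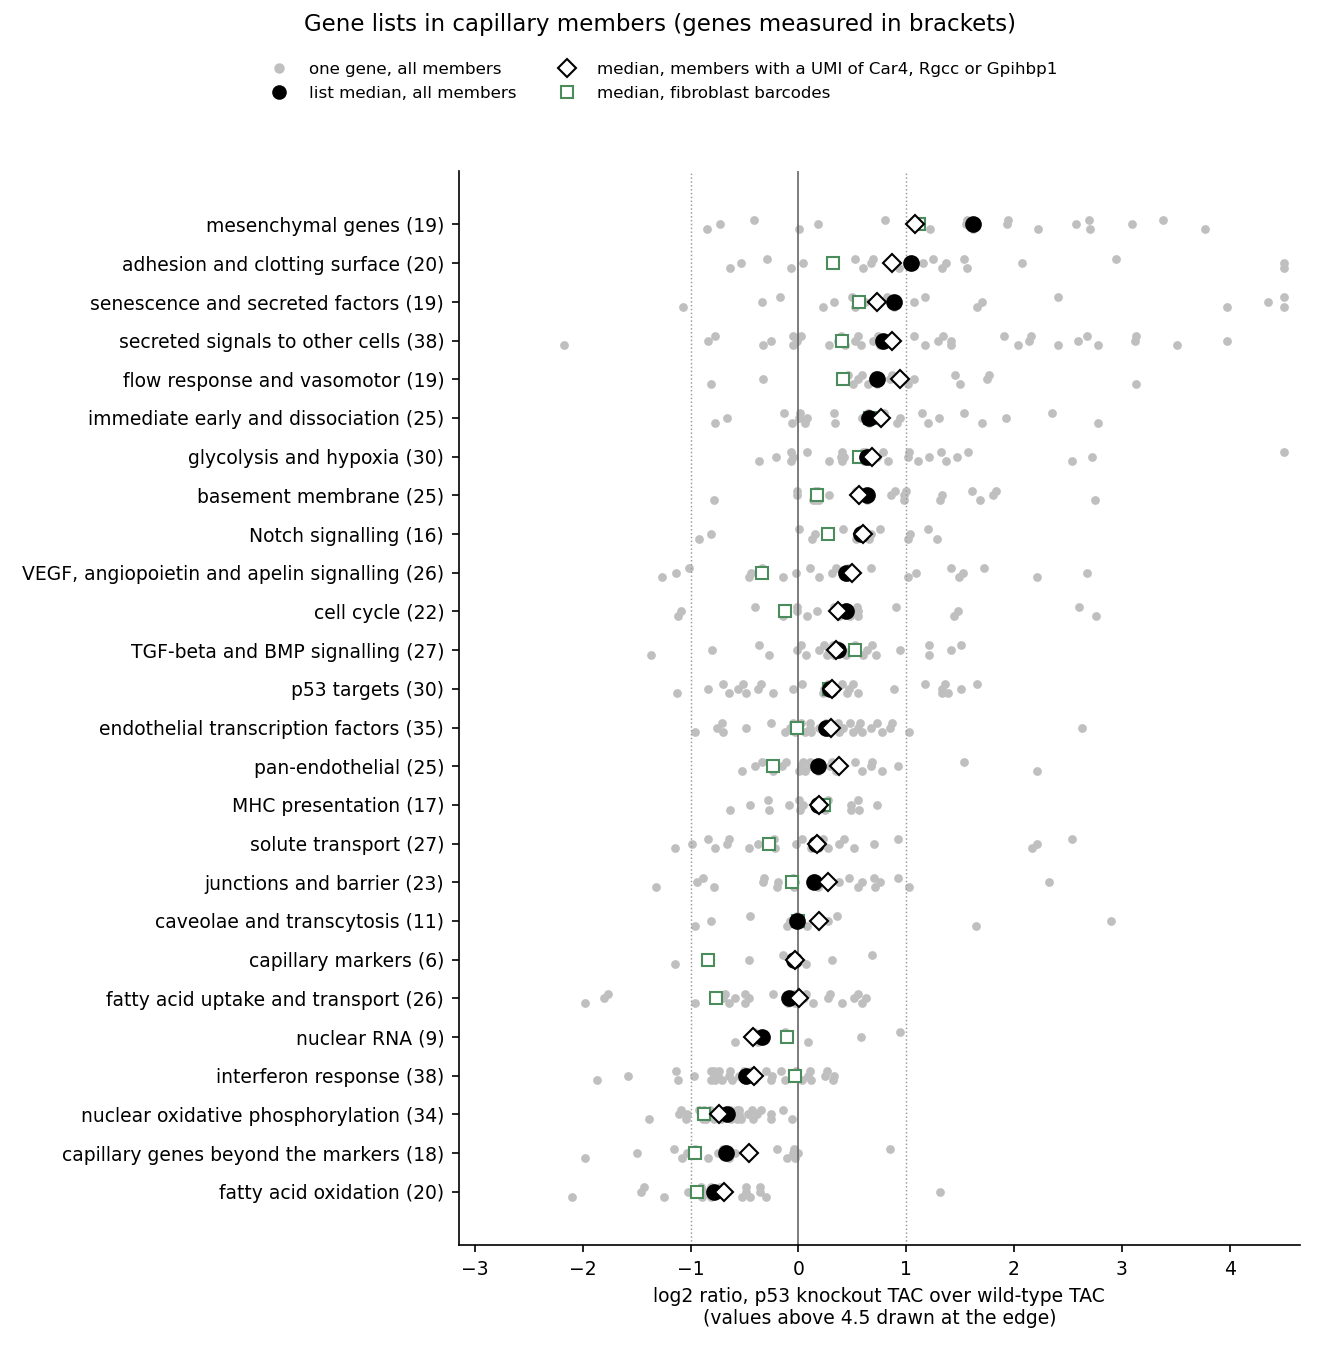
Log2 ratios of the p53 knockout over the wild-type library for the genes of 26 lists, ordered by median, with values above 4.5 drawn at the edge. Grey points are genes in all members, black circles their median, diamonds the median in marker-positive members and squares the median in fibroblast barcodes. Mesenchymal genes lie highest (median 1.62) and fatty acid oxidation lowest (−0.78), and fibroblast medians fall on the same side for most lists.

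Within a library, capillary members were set against the mean of the arterial, Igfbp5 and endocardial or lymphatic sets, which the rule separates by the excluded genes. Few genes stood apart. Of 7283 genes, 0.989% were at least 2-fold higher and 1.58% at least 2-fold lower in members of the wild-type-labelled library, and 0.687% and 0.59% in the knockout-labelled library. Outside the rule, the genes highest against this mean in both libraries included Nnat, an imprinted membrane protein, at 43.2 and 29.7 CPM in members against 17.6 and 1.03 CPM, Car4 at 164 and 74.4 against 67.7 and 34.6 CPM, the antiviral Rsad2 at 168 and 99.6 against 84.4 and 46.3 CPM, and Slc27a1, a fatty acid transporter, at 138 and 131 against 74.0 and 48.8 CPM. Pcolce2, Pla1a, Ifi207 and Ebf2 were also on this list, and all 4 were higher still in fibroblast barcodes. The sets within the mean were unequal, and members did not exceed each of them: Nnat was at 47.5 CPM in the endocardial or lymphatic set of the wild-type-labelled library, and Car4 at 74.9 CPM in the arterial set of the other. Rsad2 was nearer in the arterial set, at 133 and 84.9 CPM. Among the lowest against the mean were Nrg1 at 64.0 and 734 against 315 and 2105 CPM, and Vcam1, a leukocyte adhesion molecule, at 128 and 204 against 304 and 527 CPM. For both genes the endocardial or lymphatic set was highest, with Nrg1 at 816 and 4798 CPM and Vcam1 at 576 and 1020 CPM. Nrg1 was at 60.6 and 1250 CPM in the arterial set and 69.1 and 267 CPM in the Igfbp5 set, and Vcam1 at 60.6 and 354 CPM and at 276 and 205 CPM. In the wild-type-labelled library members were thus not lower than the arterial set, which held only 77 barcodes. In the knockout-labelled library they were higher than the Igfbp5 set in Nrg1. For Vcam1 they were near the Igfbp5 set there and below the others.

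Lists of genes were also set against the other endothelial sets. Capillary genes beyond the markers had a median log2 ratio of members over the other sets of 0.44 and 0.29, fatty acid uptake genes 0.41 and 0.44, and oxidative phosphorylation genes 0.27 and 0.28, while adhesion and clotting genes had −0.65 and −0.38 and flow-response genes −0.55 and −0.17. Against the endocardial or lymphatic set alone the capillary genes stood at 1.59 and 2.10, and against the arterial set at 0.11 and −0.34, so members were far from endocardium and near to arterial endothelium in these genes. Fatty acid uptake genes stood at 0.86 and 0.72 against the endocardial or lymphatic set and 0.29 and 0.68 against the Igfbp5 set. Against the arterial set they stood at 0.22 and −0.08.

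Cells differed in how much of these RNAs they held. After each member was thinned to 500 UMIs, which all members reached, 69.1% and 51.9% had a UMI of Cd36 (81.3% and 69.7% before thinning), against 21.3% and 7.17% of fibroblast barcodes. Car4 was seen in 6.99% and 3.98% of thinned members and in 0.962% and 0.11% of fibroblast barcodes. Vwf was seen in 5.85% and 13.8%, against 6.06% and 8.996% of fibroblast barcodes, so in the wild-type-labelled library its share did not exceed that of fibroblast barcodes. The median variance over mean was 1.25 and 1.201 over 5925 genes, above the value of 1 of pure counting. Intervals here assume pure counting, so they leave out part of the variation among cells. In the knockout-labelled library Nrg1 reached 3.65 and was seen in 14.2% of thinned members, against 13.2% of fibroblast barcodes.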

How the data were processed

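The authors deposited whole-number UMI counts per gene and barcode for each library, aligned to mm10 with Cell Ranger, with Seurat also named, per the submitters' processing notes; their versions are not given in the sources used here. Files hold 32589 gene identifiers, and barcodes are 3 blocks of 9 bases although the labels name a 10x 3′ kit. Samples were grouped by their titles. UMIs were summed over members of each library, expressed as CPM outside mitochondrial genes, and compared as log2 ratios with 0.5 UMI added; sums carry exact Poisson intervals, shares Clopper-Pearson intervals and ratios conditional binomial intervals. Called means at least 2-fold with at least 100 UMIs in a library (lists: 20 over both). The script was tested on simulated data. No doublet removal was applied in the main values: Scrublet's automatic threshold called 0 and 3 barcodes, so it had not worked, and an alternative leaves out the top 8% of scores. Values for shares of cells used thinning to 500 UMIs.

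The genes named were the 15 highest and 15 lowest ratios among genes at least as high in members as in non-members of the library in which they are higher, leaving out mitochondrial, ribosomal, haemoglobin, sex-linked and unnamed genes, the 4 most abundant and the extreme genes of each list, and the 15 genes most apart from other endothelium. Some genes that this rule names are not reported here. Other list members, Trp53, Xist, Ddx3y, Dach1 and the promoters printed were chosen after their values were seen. The members and gene lists were chosen with earlier results of these data known. Alternatives changed the rule, depth, scaling, minimum counts and cell filters. Tools were Python 3.11.15, numpy 2.4.6, scipy 1.17.1, pandas 2.3.3, scanpy 1.11.5 and matplotlib 3.10.9.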

Additional observations from a re-analysis of the deposited data

How the results depend on the processing

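The member shares moved with the rule: 15.9% and 14.97% at 3 UMIs, 8.62% and 9.54% at 6 UMIs, 9.30% and 10.7% after thinning to 500 UMIs, and 17.6% and 13.4% of barcodes under 2.5% cardiomyocyte UMIs. Genes at least 2-fold higher and lower numbered 153 and 127 under the stricter rule (6 UMIs and none of the excluded genes), 135 higher at 500 to 1500 UMIs per barcode, 138 lower under 0.5% cardiomyocyte UMIs, 142 and 119 without barcodes holding 2 or more UMIs of other classes, 215 and 137 in marker-positive members, 821 and 976 at a minimum of 20 UMIs in a library, and 3819 and 4481 at 1 UMI. Fewer genes reach the minimum in the smaller sets, which by itself lowers such counts. Of 174 list or named genes at least 2-fold apart, the direction turned for 3, Adm (−0.27 at 500 to 1500 UMIs, −0.037 after thinning), Plau (−0.35 after thinning) and Bbc3 (−1.04 without other classes), and the cause was not tested. It also turned under some alternative for 195 of 445 genes under 2-fold apart, Flt1, Dll4 and Irf1 among them. Median-of-ratios scaling gave 339 and 280. The marker-positive, adipocyte and thinned-rule alternatives for genes were chosen after seeing the data. With 1 library per group the spread between animals is unknown, leaving out a library is impossible, and a library's sex, dissociation or batch cannot be told apart from its label. No paired analysis was possible because each group holds a single library and no test was made.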
